A study of Mus musculus with 10 samples.

Results

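Toll-like receptors (TLRs) are innate immune receptors that recognise microbial products and molecules released by injured tissue. Tlr2 pairs with Tlr1 or Tlr6 at the cell surface to bind lipopeptides, and Tlr4, with its co-receptor Cd14, binds lipopolysaccharide. Tlr3, Tlr7, Tlr8 and Tlr9 sense nucleic acids in endosomes. Myd88 is an adaptor that the TLRs other than Tlr3 use in signalling, and TLR signalling reaches NF-kB and the interferon regulatory factors. In the heart these genes are expressed by resident and infiltrating leukocytes and by other cardiac cells. The 10 genes described here, the 8 receptors Tlr1, Tlr2, Tlr3, Tlr4, Tlr6, Tlr7, Tlr8 and Tlr9 with Cd14 and Myd88, were chosen by symbol among the 19942 gene symbols of the array, and each had 1 probe.

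The hearts came from male C57BL/6J mice operated at 8 weeks of age. Transverse aortic banding (TAB), which narrows the aorta and raises the load on the left ventricle, was set against a sham operation on days 3, 5, 7, 14 and 28. Left ventricle RNA gave 1 TAB and 1 sham sample per day, 10 samples in all, and neither the labels nor the methods say how many mice a sample held. The title of the day 14 TAB sample was used, although a second label of that sample names the following day. A single day has no replicate, so a TAB effect was averaged with the 5 days as its replicates, and its error mixes biological and technical spread with any change over time. Spots were read in 1 colour, and intensities are on a linear scale after normalization unless a log2 scale is named. The median raw intensity of an array lay between 34 and 57, and the scanner software found from 52.7% to 59.8% of the spots, where a negative flag was taken to mark a spot that it did not find. Markers of the cardiomyocyte were found on every array, and their summed intensity lay between 192560 and 204664 in TAB and between 188654 and 222447 in sham. Myl2 was at or near the top of the scanner range on all arrays, and without it the sums of the other 5 lay between 127065 and 139164 in TAB and between 123154 and 156952 in sham. In this bulk tissue, fewer cells of a type and less RNA per cell cannot be told apart.

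Of the 9 members that could be tested, 3 were higher in TAB on average over the 5 days. Tlr2, Cd14 and Tlr7 had adjusted p under 0.05 in limma and TAB values that all lay above all sham values, whereas 9.19% of the 16113 genes tested were called higher by the same fit and 9.99% had no overlap in that direction. None of the 9 was called lower, against 7.87% of all genes, and none lay wholly below sham, against 7.76%. At an unadjusted p under 0.05 in limma, 6 members were higher, beside 17.5% of all genes, and 1, Tlr1, was lower, beside 18.2%. Without day 3, 5 or 7 none of the 3 passed, and the number of all genes called higher was 29, 86 or 20 in place of 1481. The average log2 ratios of the 3 kept their size in these fits, between 1.05 and 1.14 for Cd14, between 1.23 and 1.32 for Tlr2 and between 0.76 and 0.93 for Tlr7. The mean log2 ratio of TAB over sham was above 0 for 7 of the 9 members, with a median of 0.41 beside −0.03 for all genes tested. Tlr9, the endosomal sensor of CpG DNA, was found on 0 of 10 arrays, with raw intensities between −5 and 5, and was left out with the probes that fell below the intensity minimum.

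**Figure D1:**
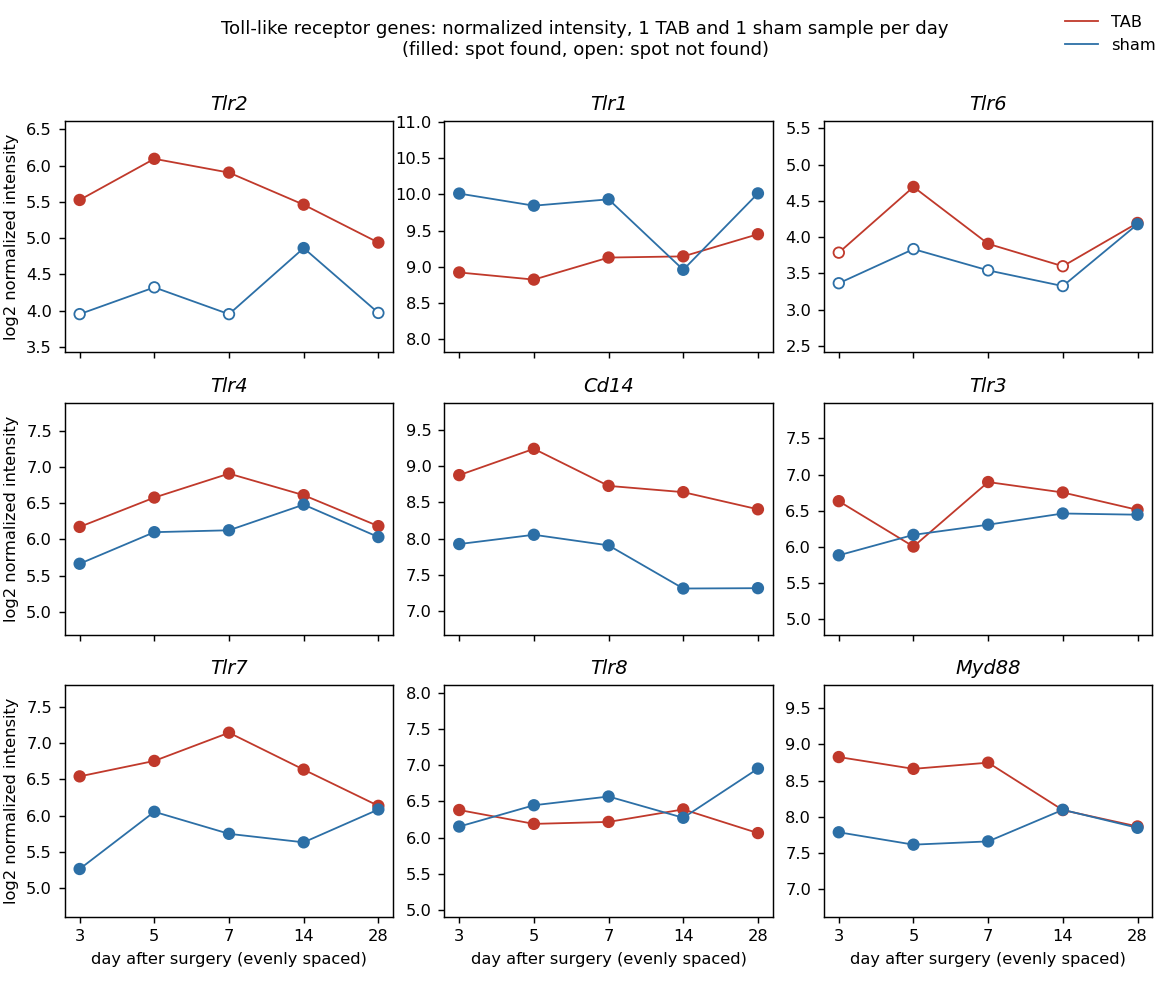
Log2 normalized intensity of the 9 members kept, by day after surgery with the days evenly spaced, for the TAB (red) and sham (blue) sample of each day; each panel spans the same log2 range, and open points are spots that were not found. The 5 TAB points of Tlr2, Cd14 and Tlr7 lie above all 5 sham points, and the day 14 sham point of Tlr1 stands apart from the other sham points.

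Tlr2, the receptor for bacterial lipopeptides, was called higher in TAB. Its intensities in TAB were 46.1, 68.4, 59.9, 44.1 and 30.7 on days 3, 5, 7, 14 and 28. In sham they were 15.5, 20.0, 15.5, 29.1 and 15.7. The lowest TAB value, on day 28, was above the highest sham value, on day 14, and the groups did not overlap. The mean was 49.8 ± 14.7 (SD, n = 5) in TAB and 19.1 ± 5.90 (SD, n = 5) in sham, and the average log2 ratio was 1.37 ± 0.22 (SE; limma adjusted p = 0.0213). Its daily log2 ratios were 1.58, 1.77, 1.95, 0.60 and 0.97, largest in the first week. The spot was dim: it was found on 5 of 5 TAB arrays and on 1 of 5 sham arrays, its raw intensity stayed between 13 and 70, and the deposited detection p-value was 0.05 or above on all 10 arrays. With 50 added before log2, the average log2 ratio was 0.52. The adjusted p was 0.0771 without day 3, 0.0721 without day 5 and 0.0795 without day 7.

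Tlr1, a partner of Tlr2, ran the other way on 4 of 5 days. Its TAB intensities were 485, 453, 559, 565 and 699 in the order of the days. The sham intensities were 1031, 918, 976, 497 and 1033. Tlr1 was thus lower in TAB on days 3, 5, 7 and 28, while the sham sample of day 14 fell among the TAB values. The mean was 552 ± 95.1 (SD, n = 5) in TAB and 891 ± 225 (SD, n = 5) in sham. The average log2 ratio was −0.66 ± 0.21 (SE), which did not pass the test (limma adjusted p = 0.0750). Without day 14 all 4 TAB values lay below all 4 sham values, as for 11.7% of all genes, and the limma adjusted p was 0.0457. With each of the other days left out it lay between 0.118 and 0.197. Tlr1 was found on all 10 arrays and its detection p-value was under 0.05 on all of them.

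Tlr6, the other partner of Tlr2 and the coding neighbour of Tlr1 on chromosome 5, was near the limit of measurement. Its intensities lay between 12.1 and 25.8 in TAB and between 10.01 and 18.1 in sham, and the ranges overlapped. The spot was found on 3 of 5 TAB and 1 of 5 sham arrays. The average log2 ratio was 0.39 ± 0.14 (SE; limma adjusted p = 0.110). Tlr1 and Tlr6 are closely related in sequence, and whether their probes tell them apart was not tested.

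Cd14, which hands lipopolysaccharide to Tlr4 and also serves Tlr2, showed the smallest adjusted p of the members. TAB intensities were 469.9, 604, 424, 399 and 339 on days 3, 5, 7, 14 and 28. Sham intensities were 243, 266, 240.0, 159 and 159. The groups did not overlap, and in both the samples of days 14 and 28 were the lowest. With a mean of 447 ± 99.7 (SD, n = 5) in TAB and 213 ± 50.5 (SD, n = 5) in sham, the average log2 ratio was 1.08 ± 0.12 (SE), a 2.11-fold difference (limma adjusted p = 0.0121). The daily log2 ratio kept between 0.82 and 1.33, with the highest on day 14. Cd14 was found on all 10 arrays, and its detection p-value was under 0.05 on 5 of 5 TAB and 2 of 5 sham arrays. The adjusted p was 0.0558 without day 3, 0.0529 without day 5 and 0.0579 without day 7.

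Tlr4, the lipopolysaccharide receptor that Cd14 feeds, was not called. The TAB intensities were 72.2, 95.5, 120.2, 97.8 and 72.7 in the order of the days, and the sham intensities were 50.7, 68.6, 69.9, 89.3 and 65.5. The TAB sample was the higher of each day, but the groups overlapped because the sham sample of day 14 exceeded the TAB samples of days 3 and 28. The average log2 ratio was 0.41 ± 0.13 (SE; limma adjusted p = 0.0834). It was found on all arrays, with a detection p-value of 0.05 or above on each. Without day 14 its 4 TAB values all lay above its 4 sham values.

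Among the endosomal receptors, Tlr7, a sensor of single-stranded RNA, was higher in TAB. Its TAB intensities were 93.2, 108, 142, 99.4 and 70.3 on days 3, 5, 7, 14 and 28. Its sham intensities were 38.4, 66.4, 53.8, 49.6 and 67.9. The TAB values all exceeded the sham values, though on day 28 the 2 samples were nearly level. The mean was 103 ± 25.9 (SD, n = 5) in TAB and 55.2 ± 12.3 (SD, n = 5) in sham, and the average log2 ratio was 0.89 ± 0.21 (SE; limma adjusted p = 0.0415). The daily log2 ratios were 1.28, 0.70, 1.40, 1.00 and 0.05. Tlr7 was found on all 10 arrays, but its detection p-value was 0.05 or above on each. The adjusted p was 0.119 without day 3, 0.105 without day 5, 0.122 without day 7 and 0.0941 without day 14.

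Tlr8, the coding neighbour of Tlr7 on chromosome X and also a sensor of single-stranded RNA, was not called. Its intensities lay between 66.9 and 83.9 in TAB and between 71.2 and 123.9 in sham, where the highest value was that of day 28. The average log2 ratio was −0.23 ± 0.18 (SE; limma adjusted p = 0.413), with 2 of 5 days above 0. Tlr3, the sensor of double-stranded RNA, lay between 64.3 and 119 in TAB and between 59.1 and 88.2 in sham. Its TAB sample was the higher on 4 of 5 days, and the average log2 ratio was 0.31 ± 0.16 (SE; limma adjusted p = 0.229). Both were found on all arrays, but the detection p-value was under 0.05 on 1 sham array for Tlr8 and on no array for Tlr3.

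Myd88, the shared adaptor, was not called on average, although its TAB values were the higher on days 3, 5 and 7. Its TAB intensities were 454, 405, 430.1, 273 and 234 on days 3, 5, 7, 14 and 28. In sham they were 221, 196, 202.5, 274 and 231. All 3 early TAB values lay above every sham value, whereas the TAB and sham samples of days 14 and 28 were nearly level. The daily log2 ratios were 1.04, 1.05, 1.09, −0.00 and 0.02. The average log2 ratio was 0.64 ± 0.23 (SE; limma adjusted p = 0.100). Myd88 was found on all arrays, with a detection p-value under 0.05 on 3 of 5 TAB and 2 of 5 sham arrays.

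**Figure D2:**
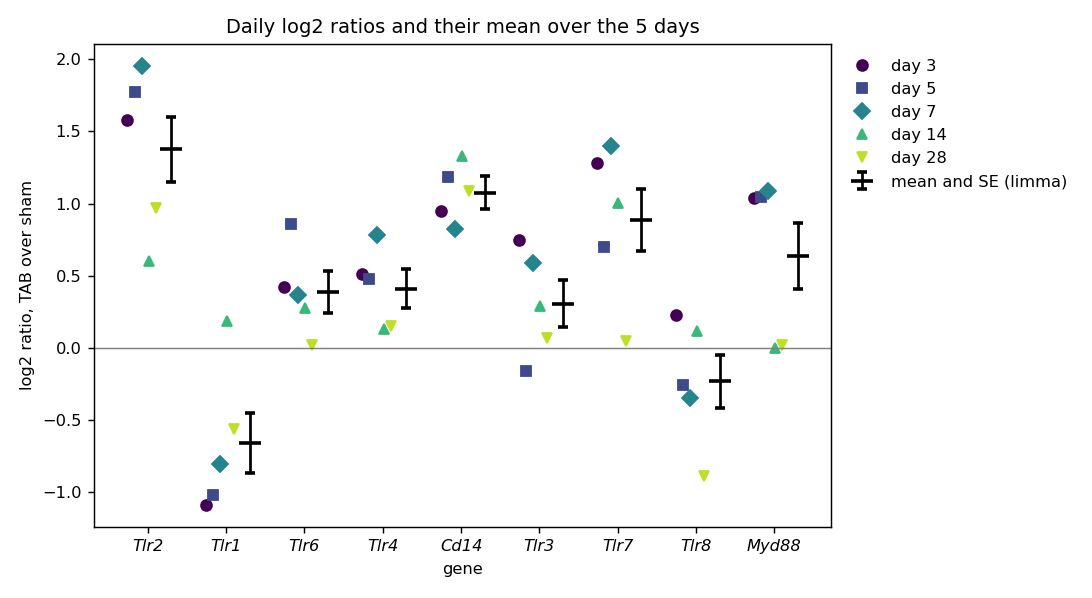
Log2 ratio of TAB over sham for each of the 9 members, with 1 point per day and, beside the points, the mean over the 5 days with its SE from limma. Cd14 keeps its 5 points close together, Myd88 has 3 points near 1 and 2 near 0, and Tlr1 has 4 of 5 points below 0.

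The time course was tested as the mean log2 ratio of days 3, 5 and 7 minus that of days 14 and 28. For Myd88 the early mean was 1.06 and the late mean 0.01, a difference of 1.05 ± 0.18 (SE; limma adjusted p = 0.321). For Tlr2 the early mean was 1.77 and the late mean 0.78, a difference of 0.98 ± 0.24 (SE; limma adjusted p = 0.394). The Tlr2 sham spots of days 3, 5, 7 and 28 were not found, so these exact means are uncertain. Tlr1 was further below 0 early, at −0.97 against −0.19 (difference −0.78 ± 0.29, SE; limma adjusted p = 0.446). The other 6 members had limma adjusted p between 0.492 and 0.819, and the Cd14 difference was −0.22 ± 0.22 (SE). None of the 9 members passed after adjustment, nor did any gene of the array (0% of 16113 in limma, with 1766 genes at an unadjusted p under 0.05), so a difference between early and late days is not shown for any member. Myd88, Tlr2 and Tlr1 were the 3 members with an unadjusted p under 0.05 in limma. The median ratio over the 9 members was 0.75, 0.70, 0.78, 0.27 and 0.05 on days 3, 5, 7, 14 and 28.

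Day by day, a gene was called where its log2 ratio lay more than 2 SDs of all genes of that day from 0. Of the 45 member-days, 1 passed, Tlr2 on day 7, with a ratio of 1.95 against a limit of 1.75. The sham spot behind that ratio was not found (raw intensity 13), so the exact ratio is uncertain. The share of all genes called higher in this way was 3.1%, 4.09%, 4.08%, 3.39% and 3.41% from the first day to the last. Against the spread of the sham samples, 27 of the 45 TAB values of members lay above the range of the 5 sham values of the same gene and 3 lay below it, beside 26.1% and 26.4% of the TAB values of all genes. The sham sample of day 14 was the highest of the 5 sham samples for Tlr2, Tlr3, Tlr4 and Myd88 and the lowest for Tlr1, Tlr6 and Cd14. It was thus at an end of the sham range for 7 of 9 members, beside 42.6% of all genes. Without day 14, Tlr2, Cd14, Tlr7, Tlr4 and Myd88 had no overlap above sham, beside 12.8% of all genes.

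The sequence before the gene start is shown for Tlr2 and Myd88, the members whose log2 ratio was above 1 on each of days 3, 5 and 7. The 250 bases before each start are from RefSeq (GRCm38.p6), 5′ to 3′ on the minus strand of the gene, with motif matches in capitals. Of the 10 members, 7 had an entry in the table used. The windows were searched on both strands for 4 motifs. The NF-kB letters, GGG then any 2 bases then TTTCC, are in 1.41% of 32851 such windows. They are 1 form of the NF-kB site, and other forms were not searched. The IRF letters, GAAA then any 2 bases then GAAA, are in 2.98%, an ETS form, GAGGAAG, in 10.6%, and the AP-1 letters TGANTCA in 6.75%.
Tlr2 (chr3:83841609-83841858): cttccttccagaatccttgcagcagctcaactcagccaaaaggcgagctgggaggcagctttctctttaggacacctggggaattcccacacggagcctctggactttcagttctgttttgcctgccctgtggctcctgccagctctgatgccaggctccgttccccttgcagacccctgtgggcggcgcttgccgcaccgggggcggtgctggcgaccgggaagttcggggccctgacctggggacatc
Myd88 (chr9:119340019-119340268): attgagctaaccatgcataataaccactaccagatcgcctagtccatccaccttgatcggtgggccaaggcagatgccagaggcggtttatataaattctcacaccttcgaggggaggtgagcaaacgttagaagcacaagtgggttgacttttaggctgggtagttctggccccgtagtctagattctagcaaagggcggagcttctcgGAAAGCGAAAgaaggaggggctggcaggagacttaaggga
The Myd88 window held 1 IRF match and no other, and the Tlr2 window held none of the 4. The NF-kB letters were found in the window of Tlr3, and the IRF letters also in 1 of the 2 windows of Tlr6. A match is a description of the letters, and no match says only that these letters are not in this window.

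Beyond the 10 genes, 76 genes of the pathway were listed, of which 72 could be tested. Of these, 27 were called higher in TAB (37.5%, beside 9.19% of all genes) and 3 lower, with a median log2 ratio of 0.57. The endogenous ligands and the target genes had the highest list medians, 1.93 and 1.52, and the adaptors and kinases the lowest, 0.14. The ligand median was 1.797 without S100a8, whose spot was found on no array, and over the genes found on all 10 arrays the medians were 1.93 for 3 ligands and 0.81 for 5 targets. The count of 27 was 0 without day 3, 1 without day 5, 0 without day 7 and 10 without day 14, and 4 with probes below the intensity minimum set to it.

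Of 12 accessory proteins and further receptors, 6 were called higher and 1 lower. Ly86 (MD-1), the partner of Cd180, had a log2 ratio of 1.84 ± 0.31 (SE; limma adjusted p = 0.0226), and its TAB values all lay above its sham values. Lbp, which carries lipopolysaccharide to Cd14, had a ratio of 1.06 ± 0.23 (limma adjusted p = 0.0333), and Ly96 (MD-2), the subunit that binds lipopolysaccharide on Tlr4, of 0.58 ± 0.11 (limma adjusted p = 0.0272). Cd36, a fatty acid transporter that also assists Tlr2, was the gene called lower, at −0.95 ± 0.15 (limma adjusted p = 0.0200), while its other probe gave −0.28. The others called higher were Tlr13, Tlr12 and Cd180, of which Tlr12 and Cd180 were found on 1 array each. Tlr13, a mouse sensor of bacterial ribosomal RNA, had the largest ratio of the list at 2.09 ± 0.28 (limma adjusted p = 0.0158).

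Of 20 adaptors and kinases, 3 were called higher and 2 lower. Ripk1 (0.91, limma adjusted p = 0.0322), a kinase downstream of Ticam1, Traf3 (0.73, adjusted p = 0.0267), a ubiquitin ligase of the interferon branch, and Irak3 (0.41, adjusted p = 0.0459), a brake on Myd88 signalling, were higher. The second Ripk1 probe gave 0.28. Sarm1 (−0.77, limma adjusted p = 0.0322), a TIR-domain protein that cleaves NAD, and Ikbkg (−0.81, adjusted p = 0.0497), the regulatory subunit of the IKK complex, were lower, and Ikbkg was found on 3 of 5 TAB arrays. The kinase Irak4, which binds Myd88, had a ratio of 0.59 (limma adjusted p = 0.0621). For Ticam1, the adaptor of Tlr3, the probe used was found on 1 array. Its other probe was found on all 10 arrays and gave −0.42.

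Among 9 transcription factors, 5 were called higher and none lower. The IRF genes called were Irf7 (1.40, limma adjusted p = 0.0267), Irf5 (1.18, adjusted p = 0.0252) and Irf8 (0.99, adjusted p = 0.0391), and the NF-kB genes were Relb (0.73, adjusted p = 0.0427) and Nfkb2 (0.64, adjusted p = 0.0373). All 5 had TAB values above every sham value. Irf3 had a ratio of −0.02 (limma adjusted p = 0.901), Rela of 0.32 (adjusted p = 0.0940) and Nfkb1 of −0.64 (adjusted p = 0.0711). Of 10 inhibitors, only Nfkbie was called, found on 3 of 5 TAB and 0 of 5 sham arrays. Set against the floor used for sham spots not found, it was 2.28-fold higher, with unfound TAB spots taken as measured. Nfkbia, which holds NF-kB in the cytoplasm, had a ratio of −0.32 (limma adjusted p = 0.311).

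Of 16 target genes, 14 were tested and 6 were called higher, with none lower. Ptgs2, found on 5 of 5 TAB and 0 of 5 sham arrays, was dropped by the intensity minimum, as was Ifnb1, found on no array. Vcam1, a leukocyte adhesion molecule, had a ratio of 0.90 (limma adjusted p = 0.0312) and was found on all arrays. The other 5 were the cytokine Il6 and the chemokines Ccl3, Ccl4, Ccl5 and Cxcl2, none of which was found on any sham array. Ccl4 was at least 7.18-fold higher (found on 5 of 5 TAB arrays). Set against the same kind of floor, Il6 (found on 3 of 5) was 4.37-fold higher. Its TAB spots that were not found were taken as measured, so that value is not a strict bound. Tnf, the classical cytokine of the pathway, had a ratio of −0.04 (limma adjusted p = 0.840), and Il1b of 1.71 ± 0.88 (SE; limma adjusted p = 0.220), so it was not called despite its size.

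Of 9 endogenous ligands, 7 were tested and 6 were called higher. The tested ligands are matrix proteins and alarmins with other roles as well, and Hmgb1 and Hspd1 were not analysed here. The matrix genes were Tnc (4.06 ± 0.92, SE; limma adjusted p = 0.0361), Fn1 (2.80 ± 0.39; adjusted p = 0.0167), Bgn (1.93 ± 0.18; adjusted p = 0.0116) and Vcan (1.66 ± 0.23; adjusted p = 0.0160). Bgn, a proteoglycan that binds Tlr2 and Tlr4, had TAB intensities between 5650.5 and 10570 and sham intensities between 1951 and 2589. Fn1, fibronectin, fell within TAB from 1995 on day 5 to 329 on day 28, while its sham values lay between 126 and 159. Saa3, an acute-phase protein, was found on 4 of 5 TAB and 0 of 5 sham arrays. S100a8 was called although its spot was found on no array, so no fold is given.

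**Figure D3:**
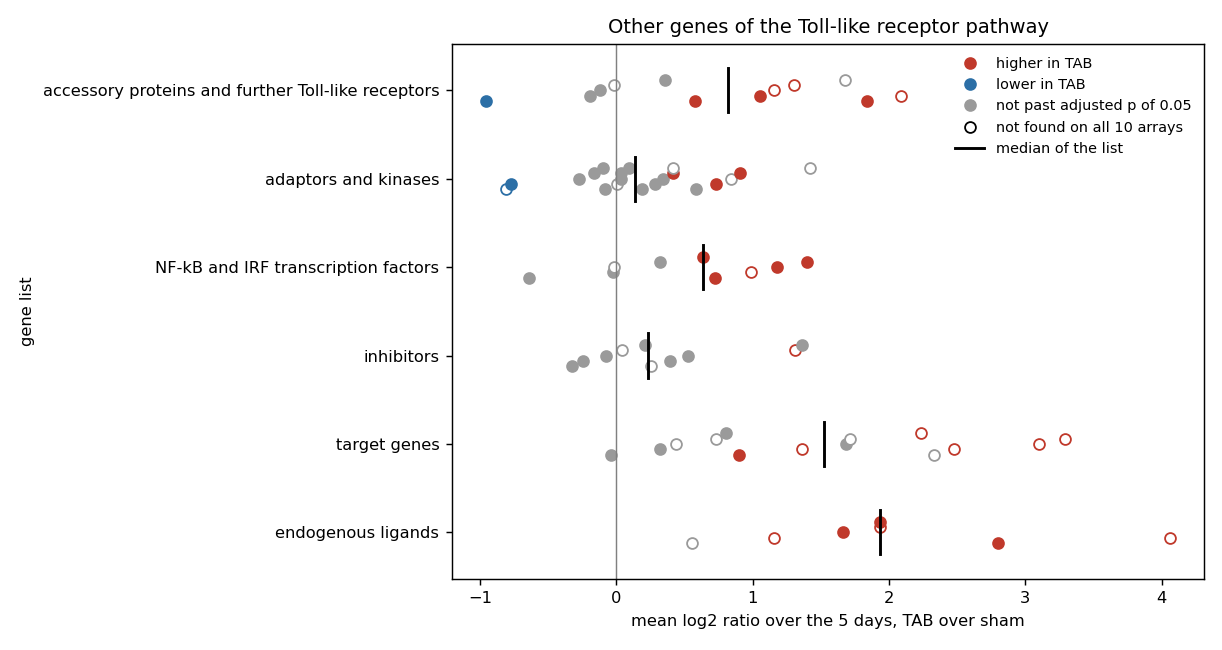
Mean log2 ratio of TAB over sham over the 5 days for each tested gene of the 6 pathway lists, coloured by the limma call, with open points for genes not found on all 10 arrays and a bar at the list median. The medians of the ligands (1.93, or 1.797 without S100a8, found on no array) and targets (1.52) lie to the right of that of the adaptors and kinases (0.14).

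Leukocyte markers were also higher in TAB. Of 11 monocyte and macrophage markers, 8 were tested and all 8 were called higher, with a median log2 ratio of 1.54. Their summed intensity lay between 2959 and 7416 in TAB and between 1799.6 and 2279 in sham. The largest ratios among those found on every array were Cx3cr1 (2.21, limma adjusted p = 0.0226), Cd68 (2.01, adjusted p = 0.0235), Aif1 (1.64, adjusted p = 0.0272) and Emr1 (1.45, adjusted p = 0.0384). By day the median ratio of the 8 was 1.47, 2.63, 2.005, 1.03 and 0.82, highest on day 5. All 4 pan-leukocyte markers were called higher, Cd52 (1.83), Laptm5 (1.59), Coro1a (1.45) and Ptprc (1.26), with limma adjusted p between 0.0210 and 0.0324 and summed intensities of 2661 to 8493 in TAB and 1301 to 1998 in sham. The part of leukocyte number in the ratios of Tlr2, Cd14, Tlr7 and Myd88 was not tested.

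Markers of other cell types gave few calls. None of 3 tested neutrophil markers and none of 3 tested dendritic cell markers was called. Of the tested ones Mmp8 and Siglech were found on no array, as were Cxcr2 and Xcr1, which could not be tested. The summed neutrophil intensity lay between 53.1 and 211 in TAB and between 31.8 and 99.9 in sham, and that of the dendritic cell markers between 22.2 and 108 in TAB and between 16.8 and 52.8 in sham. Of 5 tested T, B and NK cell markers, Cd3d was called higher, found on 2 TAB arrays, and Cd3e lower (−0.59, limma adjusted p = 0.0325). Their sum lay between 435 and 555 in TAB and between 559 and 784 in sham. No endothelial marker (5 tested, median 0.11) and no cardiomyocyte marker (6 tested, median −0.14) was called. Of 3 tested fibroblast markers only Postn, a matrix gene of activated fibroblasts, was called, at 3.37 ± 0.23 (SE; limma adjusted p = 0.00430).

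**Figure D4:**
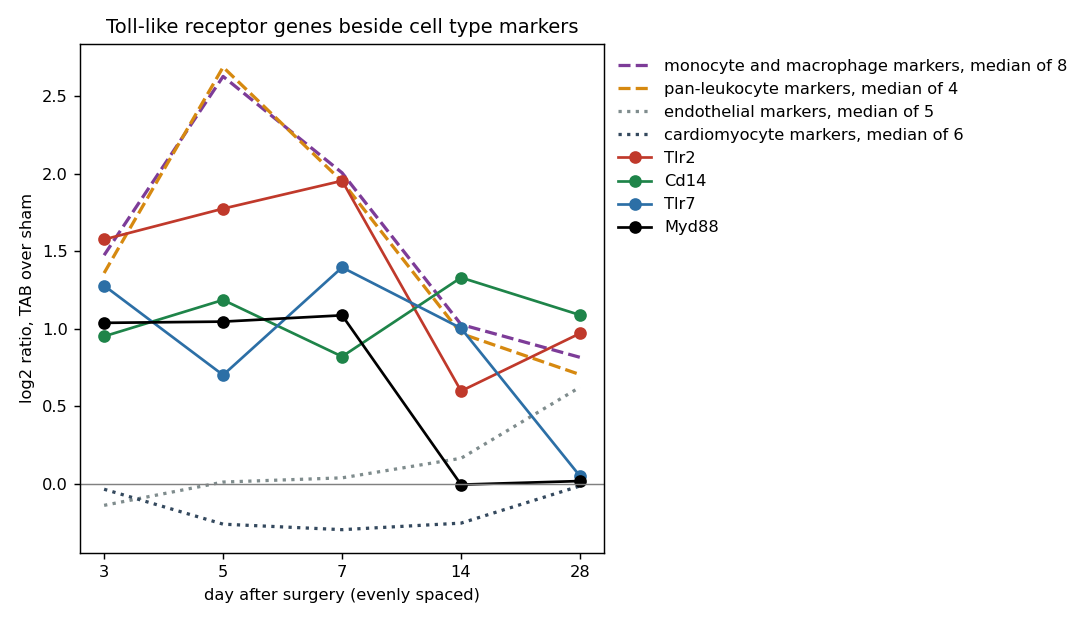
Log2 ratio of TAB over sham by day after surgery, days evenly spaced, for Tlr2, Cd14, Tlr7 and Myd88 (points joined by lines) and the median ratio of 4 marker lists (broken lines). The leukocyte and macrophage medians peak on day 5 at 2.69 and 2.63. Among the single markers of these lists, only Csf1r (1.25) and Emr1 (2.42, and 2.37 on day 5) have their highest ratio on day 7. The other markers peak on day 5, except Mrc1 on day 14. Tlr2 and Tlr7 have their highest ratio on day 7, and Myd88 is near 0 on days 14 and 28.

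Each member found on all 10 arrays was also set against the 10535 genes found on all arrays, by the root mean square (RMS) difference of the 5 daily log2 ratios. The nearest genes to Cd14 were Pdlim2 (RMS 0.140), Gpc6 (0.141) and Fxyd6 (0.142). Those nearest to Tlr7 were Ccl6 (0.160), Cstb (0.172) and S100a10 (0.183). Myd88 lay nearest to Nfatc4 (0.105), Dok7 (0.108) and Prkar2b (0.115), and Tlr1 to Lrch4 (0.143), Ogt (0.144) and Pdp2 (0.160). For Tlr4 they were Strada (0.0358), Atp13a2 (0.0790) and Cep170 (0.0882), for Tlr3 Ppfia1 (0.0734), Hdac8 (0.0931) and Enox2 (0.102), and for Tlr8 Grifin (0.0400), Cacna1c (0.0505) and Xrn1 (0.0808). With 5 values per gene, such closeness describes these samples only.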

How the data were processed

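Left ventricle RNA was labelled with Cy5 and hybridized to Mouse Whole Genome OneArray slides. The authors deposited 1 background-subtracted intensity per probe and array, not scaled between arrays. A detection p-value deposited beside it has no stated computation, and a flag was read as GenePix commonly uses it. Of 26423 probes, 3633 had no gene symbol and were not counted as genes.

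All arrays were brought to the same median intensity. Probes whose scaled value was under 1 anywhere were dropped, and quantile normalization used the median of every rank before log2 values were taken. Where a gene had several probes, that with the largest summed absolute log2 ratio stood for it, as the methods state. The average TAB effect and the early minus late difference were fitted with limma 3.58.1 (R 4.3.3; lmFit and eBayes, day as a block) with Benjamini-Hochberg adjustment over 16113 genes at 0.05. The methods name no such test, and samples were paired by day. After subtraction of the group means, the 2 samples of a day correlated over genes with r between −0.0165 and 0.113. A fold against a group found on no array used a floor for that group. The floor was the lowest signal of found spots, or the measured value where that was higher. The fold is given as a bound only where all spots of the other group were found. The code was tested on simulated data. Other steps used Python 3.11.15, numpy 2.4.6 and pandas 2.3.3.

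The genes, the lists and the tests were chosen with earlier results of these data known. Genes named are the members, every called gene of a list up to 5 (otherwise the 4 largest found on all 10 arrays) and the 3 nearest genes of each member. Genes of the lists named beyond this rule were chosen after their values were seen. With 10 arrays, precision is limited by their number.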

Additional observations from a re-analysis of the deposited data

Results flagged for a closer look

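In the sham samples of Tlr1, the sample of day 14 stood apart from the other 4. Its normalized intensity was 497. On the log2 scale, its gap to the nearest sham sample was 0.839 of the sham range, above the critical value of 0.71 for 5 samples. The log2 ratio of Tlr1 on that day, 0.19, was the only one above 0. Of 18 groups of 5 samples examined over the 9 members, 1 met this rule, and chance alone does so in about 1 of 20 groups.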

How the results depend on the processing

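Every member kept the direction of its average log2 ratio in every one of the 16 alternatives that gave it a value (14 for Tlr2 and Tlr6, which fall out when dim genes are removed). Cd14 was called in 13 of 16, Tlr2 in 11 of 14 and Tlr7 in 11 of 16. The 3 members called higher became 0 without day 3, 5 or 7, and with each day left out in turn the count lay between 0 and 3. Tlr7 was also lost without day 14 (limma adjusted p = 0.0941) and with probes below 1 set to 1 (0.0781). The count of members called lower went from 0 to 1, which was Tlr1, with 50 added before log2 (0.0327), with the lowest tertile left out, with probes not found on any 1 array left out, and with trend and robust on. With each day left out it lay between 0 and 1. Myd88 was called without the day block (0.0452), without the lowest tertile (0.0483), without probes not found (0.0375) and with trend and robust on (0.0415), and Tlr4 without the lowest tertile (0.0375) and without probes not found (0.0357).

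With a day left out, the genes called higher lay between 20 and 1482, those called lower between 1 and 1271, the other pathway genes called higher between 0 and 25 and lower between 0 and 3, the member-days called between 0 and 1, and the members without overlap between 3 and 6. With 50 added before log2, 2242 genes were called higher, 2227 lower, 6 pathway genes lower and 3 member-days, and the average log2 ratio of Tlr2 was 0.52. With probes below 1 set to 1 these counts were 459, 218, 1 and 0, and 4 pathway genes were called higher. Genes called lower were 1944 without the lowest tertile, 2032 without probes not found and 2064 with trend and robust on. Without probes not found, 5 pathway genes were called lower and 3 member-days were called. An absolute log2 ratio of at least 1 called 14 member-days. This limit is looser than that of 2 SDs, which lay between 1.38 and 1.93, and the share of all genes passing it is not given. A TAB value outside the range of the 5 sham samples called 30, beside 26.1% of the TAB values of all genes above that range and 26.4% below it. The higher and lower calls were 1481 and 1268 in the reported fit, 1782 and 855 with median scaling only, and 1871 and 950 with quantile normalization within each operation. Without the day block (no replicate block) they were 1951 and 1647. The cause of these changes was not tested, and fits with a day left out have fewer samples. Tlr2, Tlr3, Tlr4, Tlr6 and Tlr7 had detection p-values of 0.05 or above on every array, which limits their values.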
